A study of Mus musculus with 48 samples.

Results

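The transcripts of 6 genes were followed across the whole data set, namely Htt, the mouse huntingtin gene, 3 genes whose products bind huntingtin (Hap1, Hip1 and Setd2), Hip1r, a relative of Hip1, and Bdnf, a growth factor gene that is tied to huntingtin in the striatum. They were chosen by name from the 18178 genes with a symbol, with earlier results of these data known. All 6 of 6 were among the 13409 genes that were tested. RNA-Seq had been carried out on 48 samples of murine striatal progenitor cells, with 3 samples in each of 16 conditions. STHdhQ7 cells carry wild-type huntingtin and STHdhQ111 cells a form with an expanded polyglutamine tract. Both lines were given vehicle in serum-free medium for 24 h, and these are the STHdhQ7 and STHdhQ111 vehicle controls, labelled Q7SST and Q111SST. All other samples were STHdhQ111 cells that received 1 of 14 compounds for the same time in the same medium. These were 10 µM meclizine, 10 µM cyproheptadine, 10 µM loxapine, 10 µM selisistat, 10 µM diacylglycerol kinase inhibitor II (DKI), 5 µM pizotifen, 250 µM cysteamine, 1 mM sodium butyrate, 4 mM 4-deoxypyridoxine (DOP), 250 nM fingolimod phosphate, 10 nM trichostatin A, 1 nM nortriptyline, 0.5 nM nicotinamide and 0.5 nM haloperidol. Cyproheptadine, loxapine and pizotifen form Group A of the study, and DKI and meclizine form Group B. The compounds were all given to the mutant line, so there is no treated wild-type sample.

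Huntingtin is a large scaffold protein that links vesicles to motor proteins and works in transcription, endocytosis and autophagy, and a CAG expansion in its first exon causes Huntington's disease. Huntingtin-associated protein 1 (Hap1) couples huntingtin to kinesin and to dynein-dynactin along microtubules. Huntingtin-interacting protein 1 (Hip1) and its relative Hip1r bind clathrin, phosphoinositides and actin in endocytosis. Setd2, also known as a huntingtin-binding protein, trimethylates lysine 36 of histone H3. Bdnf, brain-derived neurotrophic factor, is supplied to the striatum mainly by cortical neurons, and wild-type huntingtin is known to favour both its transcription and its transport.

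The values are log2 normalized abundances made by the authors, and a difference between lines or treatments is called here if its Benjamini-Hochberg adjusted p from limma, taken over all genes tested, is under 0.05. The labels do not say that samples of a condition came from separate cultures, so p-values measure only the spread between these samples. STHdh lines are clonal and immortalized, and 1 line of each genotype was profiled, so the huntingtin allele and any other difference between the lines cannot be told apart. Of 7 listed progenitor genes 2 reached a mean of 6, namely Vim, an intermediate filament gene, at 15.4 and Sox9 at 9.38. Pax6 averaged 3.06 and Msi1 4.40, and Fabp7 had a mean under 1. Of 15 listed striatal genes 12 had values, and Gsx2, Isl1 and Drd2 had none. Of the 12, 3 reached a mean of 6 (Foxp1, Ebf1 and Meis2), while Drd1, Bcl11b and Dlx5 were under 1. Nes, which encodes the progenitor protein nestin, lay between 9.93 and 11.7 in STHdhQ7 cells and between 4.46 and 7.14 in all 45 STHdhQ111 samples. Sox2, a progenitor transcription factor, lay between 8.41 and 9.34 in STHdhQ7 cells and between 4.38 and 5.92 in STHdhQ111 cells. In the opposite direction, Sox9, a transcription factor of the same progenitor list, lay between 7.66 and 7.74 in STHdhQ7 cells and between 8.74 and 9.80 in STHdhQ111 cells. Also lower in STHdhQ7 cells, Ptprc, the leukocyte marker CD45, lay between 7.36 and 8.33 in STHdhQ7 cells and between 9.83 and 10.9 in STHdhQ111 cells, while the other 4 microglial markers were not at a mean of 6. Neuronal, astrocyte, oligodendrocyte, mesenchymal and endothelial lists had 1 of 6, 1 of 4, 0 of 2, 5 of 6 and 1 of 4 of their genes with values at a mean of 6 or more. Aqp4 of the 5 astrocyte genes and Olig1, Olig2 and Mog of the 5 oligodendrocyte genes had no values. Of the mesenchymal genes Col1a1 averaged 14.5, Col1a2 12.7 and Col3a1 12.2, and Thy1 was under 1. What part these line differences have in the values below was not tested. In bulk RNA, fewer cells that express a gene and less RNA per cell cannot be told apart.

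The stretch of Htt that the expansion affects is shown first, since it is the difference between the lines that the labels name. It starts the coding sequence in exon 1 (GENCODE M21 on GRCm38.p6, chr5:34761907-34762002, plus strand), and capitals mark the 7 consecutive glutamine codons, of which the last 4 are CAG.
Htt coding start: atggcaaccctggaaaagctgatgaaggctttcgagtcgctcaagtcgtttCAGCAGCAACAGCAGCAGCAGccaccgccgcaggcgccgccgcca
This is the sequence of the mouse reference. The knock-in alleles of the STHdh lines have a humanized exon 1, their repeats were not read here, and single-end reads of 50 bp assigned to mouse transcripts do not measure repeat length. Htt lies on chromosome 5 of GRCm38 (34761740 to 34912534, plus strand) and shares its 3′ end with Msantd1 on the same strand, so reads there could be counted for either.

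The sequence upstream of the annotated start (RefSeq, GRCm38.p6) is given for 4 of the genes whose levels are described as moving together or apart below. In each 250-base window capitals mark the GC box GGGCGG, which Sp1 binds, and the shorter TGACG core of the cAMP response element (CRE), both searched on either strand. The full CRE TGACGTCA is its own reverse complement and contains that core on either strand.
Htt, chr5:34761490-34761739, plus strand: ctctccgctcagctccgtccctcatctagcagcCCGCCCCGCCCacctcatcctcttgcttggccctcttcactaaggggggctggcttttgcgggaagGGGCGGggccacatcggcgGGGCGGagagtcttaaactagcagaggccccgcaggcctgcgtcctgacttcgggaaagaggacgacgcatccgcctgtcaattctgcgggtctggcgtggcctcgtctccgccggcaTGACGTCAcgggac
Hip1, chr5:135489230-135489479, minus strand: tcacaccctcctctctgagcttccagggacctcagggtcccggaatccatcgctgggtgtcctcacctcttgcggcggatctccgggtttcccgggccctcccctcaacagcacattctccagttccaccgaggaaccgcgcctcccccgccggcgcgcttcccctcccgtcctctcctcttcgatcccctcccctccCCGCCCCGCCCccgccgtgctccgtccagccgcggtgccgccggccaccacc
Setd2, chr9:110532347-110532596, plus strand: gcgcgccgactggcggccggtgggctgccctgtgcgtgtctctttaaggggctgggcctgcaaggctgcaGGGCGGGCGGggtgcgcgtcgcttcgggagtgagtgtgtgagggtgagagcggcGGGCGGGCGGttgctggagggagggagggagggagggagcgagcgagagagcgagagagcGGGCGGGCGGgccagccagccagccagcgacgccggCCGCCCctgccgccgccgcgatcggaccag
Bdnf, chr2:109676782-109677031, plus strand: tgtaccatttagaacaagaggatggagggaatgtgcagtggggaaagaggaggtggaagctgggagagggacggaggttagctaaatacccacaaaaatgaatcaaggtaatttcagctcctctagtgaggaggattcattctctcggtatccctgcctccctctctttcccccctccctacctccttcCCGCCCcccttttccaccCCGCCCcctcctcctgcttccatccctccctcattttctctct
The Htt window held 4 GC boxes and 1 full CRE. GC boxes were present in 32.7% and the full CRE in 1.55% of 32851 RefSeq windows of the same length. Setd2 had 7 GC boxes, Hip1r had 4, and the windows of Hip1 had 2 (the window shown) and 1, whereas both Hap1 windows had 0 and a single TGACG each. Of the 7 alternative Bdnf windows, the second (shown) had 2 GC boxes, the fourth had 1, and the third had 1 TGACG, a match found in 17.8% of all windows. A match describes the letters only, and no binding was measured here.

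To ask whether the partners differ between the lines as Htt does, the vehicle controls were compared. Htt was higher in STHdhQ7 cells. Its log2 values there were 9.29, 9.01 and 9.03, against 8.10, 8.10 and 7.92 in STHdhQ111 cells. All 3 STHdhQ7 samples lay above all 3 STHdhQ111 samples. The log2 difference was 1.07 (SE 0.077, 95% CI 0.91 to 1.23), which is 2.10-fold, with an adjusted p of 5.3e-15. Hap1 was also higher, at 8.78, 8.19 and 8.35 in STHdhQ7 and 8.05, 7.84 and 8.04 in STHdhQ111 cells, a difference of 0.47 (SE 0.14, adjusted p = 0.0038). The lowest STHdhQ7 value stood just above the highest STHdhQ111 value, and without replicate 1 of the STHdhQ7 control, the highest sample, the difference was 0.28 and was not called (adjusted p = 0.090). So 2 of the 6 genes were called, both higher in STHdhQ7, where 55.8% of all genes tested were called, 29.2% higher and 26.6% lower.

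The other 4 genes gave no call between the lines. Hip1 was 9.89 ± 0.07 in STHdhQ7 and 9.92 ± 0.11 in STHdhQ111 cells (SD, n = 3), a difference of -0.03 with a 95% CI of -0.14 to 0.09. Hip1r was 9.61 ± 0.06 against 9.55 ± 0.03 (difference 0.06, CI -0.08 to 0.21). For both endocytic genes a change as large as that of Htt lies outside the interval. Setd2 was 9.78 ± 0.09 against 9.65 ± 0.16 (difference 0.13, CI -0.02 to 0.27, adjusted p = 0.13), and it was called at 0.18 and 0.19 when replicate 1 of the STHdhQ7 or of the STHdhQ111 control was left out. Bdnf had the same mean of 9.19 in both lines, with a difference of 0.01 (CI -0.16 to 0.17). Its spread was unequal, since the STHdhQ7 samples read 8.95, 9.47 and 9.16 and the STHdhQ111 samples 9.18, 9.18 and 9.21.

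Per kilobase of exon, the log2 level of Htt was 4.50 in STHdhQ7 and 3.43 in STHdhQ111 cells, the lowest of the 6 genes in either line. The other 5 had per-kilobase levels between 6.19 (Hip1) and 6.73 (Hip1r) in STHdhQ7 cells and between 6.06 (Hap1) and 6.67 (Hip1r) in STHdhQ111 cells. The exons of all annotated Htt transcripts cover 24.4 kb. By the longest coding transcript (13.2 kb) the Htt level was 5.39 and 4.32, and Htt was again the lowest. Both scalings take the values to grow with transcript length, which is not stated for the deposited values. Unscaled, Hap1 was the lowest of the 6 in both lines. It averaged 8.44 against 9.11 for Htt in STHdhQ7 and 7.98 against 8.04 in STHdhQ111 cells.

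**Figure D1:**
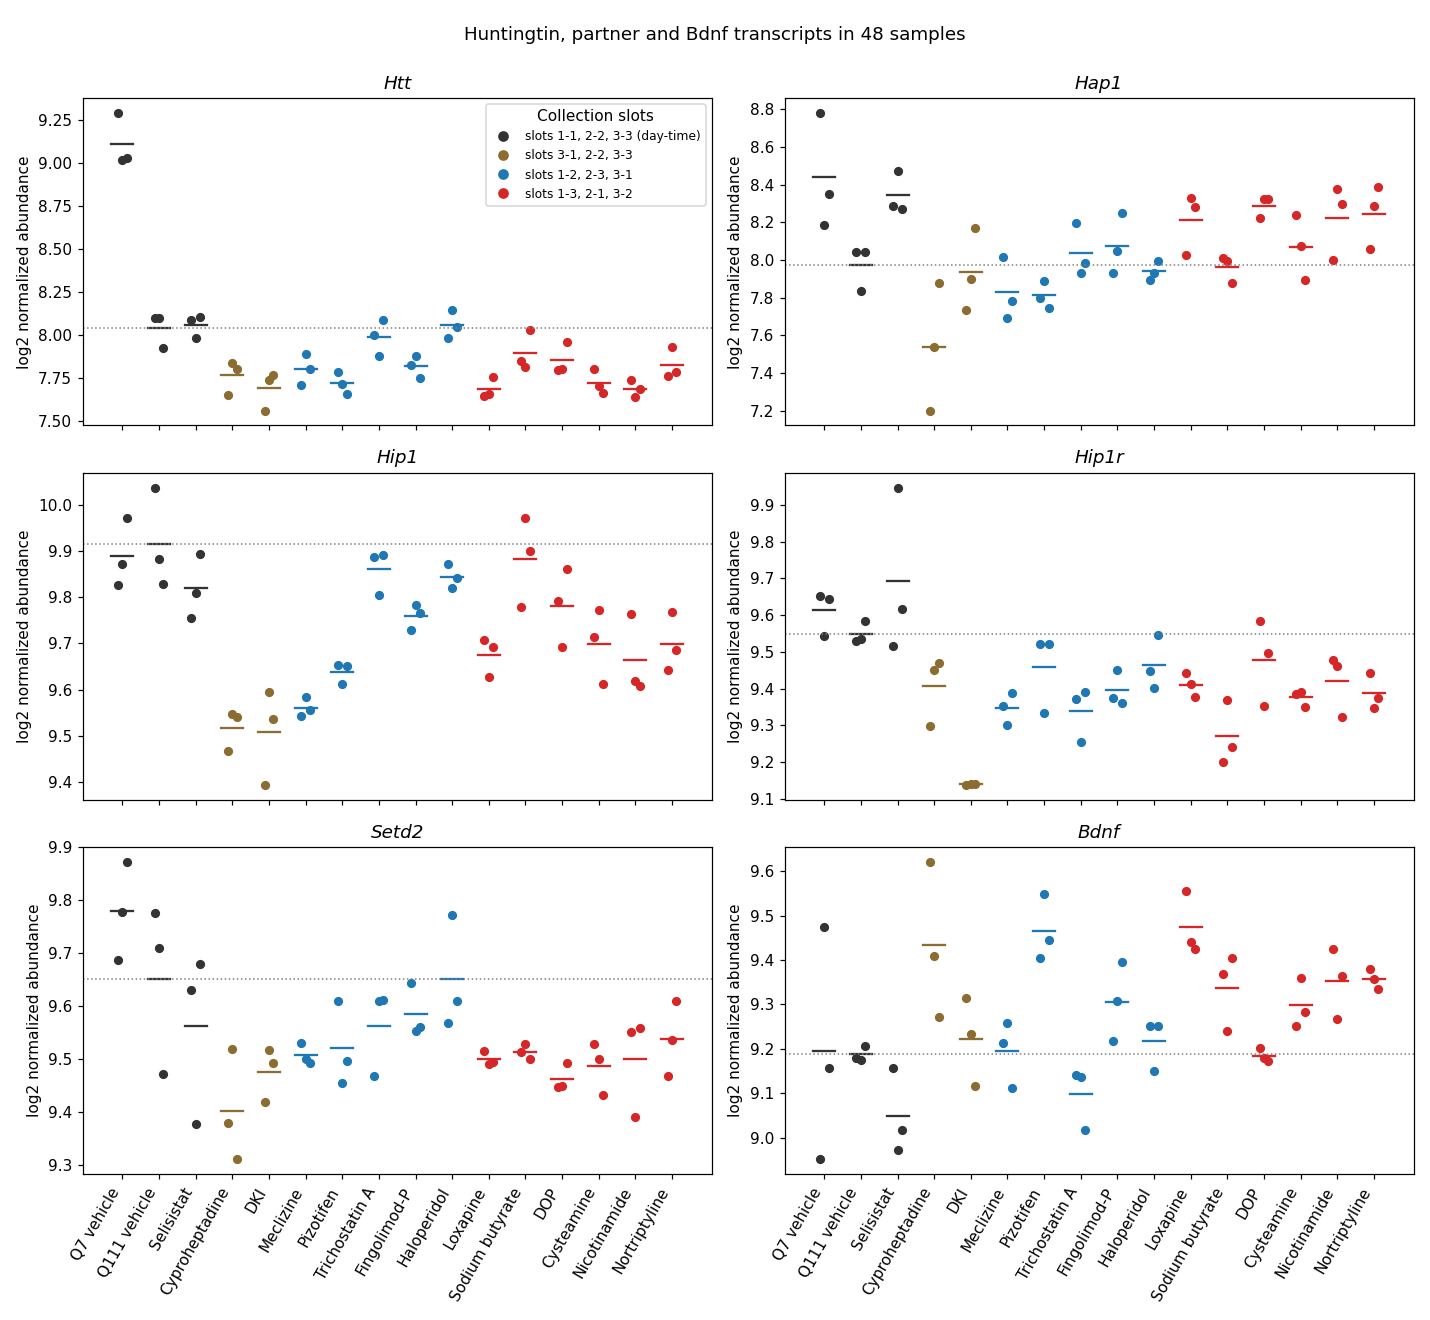
Log2 normalized abundance of each gene (y axes, 1 panel a gene, scales differ) in the 3 samples of each of the 16 conditions (x axis); points are samples, bars are condition means, the dotted line is the mean of the STHdhQ111 vehicle control, and colours give the collection slots (day-time). Htt stands apart in STHdhQ7 cells, between 9.01 and 9.29, and stays at or below 8.14 in all STHdhQ111 samples.

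Each compound was then set against the STHdhQ111 vehicle control, to ask which of the genes move with treatment. The compounds differed widely in how much of the transcriptome was called, and the genes are read against that share. With cyproheptadine 5 of 6 genes were called, against 35.6% of all genes tested. DKI gave 4 (42.3% of all genes), meclizine 3 (26.8%), loxapine 3 (21.9%) and pizotifen 3 (17.9%). Nicotinamide and cysteamine gave 2 each (10.4% and 7.83%), and sodium butyrate, trichostatin A and nortriptyline gave 1 each (37.5%, 13.1% and 3.83%). DOP (20.1%), selisistat (0.515%) and fingolimod phosphate (0.0597%) gave 0. Haloperidol gave 0 of 6 and 0 genes in all by limma. With it 397 of the 13409 genes tested had an unadjusted limma p under 0.05, fewer than that threshold gives with no effect. All comparisons share the 3 vehicle samples.

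The huntingtin transcript fell with 7 of the 14 compounds and rose with 0. The values were 7.64, 7.66 and 7.76 with loxapine, 7.74, 7.64 and 7.69 with nicotinamide, and 7.56, 7.74 and 7.77 with DKI. None of these samples reached the lowest vehicle value of 7.92. The log2 differences were -0.35 with loxapine (SE 0.077, adjusted p = 0.00092), -0.35 with nicotinamide (adjusted p = 0.0029) and -0.34 with DKI (adjusted p = 0.0004). Smaller falls were called with pizotifen (-0.32), cysteamine (-0.32), cyproheptadine (-0.27) and meclizine (-0.24), and again no treated sample overlapped the vehicle samples. The count was 5 without replicate 1 or without replicate 2 of the vehicle control and 9 without replicate 3. Against compounds of the same slots of collection day and time the differences were -0.07 with loxapine, -0.03 with cysteamine and -0.14 with meclizine, none of them called, and over the samples that share slots with the vehicle that with cyproheptadine was -0.19, also not called. Nicotinamide shared no slot with the vehicle control and was itself part of that reference, so its fall was not compared within slots. Treatment and slot cannot be told apart for it. Selisistat, an inhibitor of the deacetylase Sirt1, left Htt at 8.09, 7.98 and 8.11, with a difference of 0.02 (CI -0.14 to 0.17). Among the 15 STHdhQ111 conditions, mean Htt ranged over 0.37 from loxapine (7.69 ± 0.06) to selisistat (8.06 ± 0.07), and no neighbours in that order were further apart than their pooled SD. The only gap larger than that was between STHdhQ7 and selisistat, where the means were 9.11 and 8.06.

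Hap1 varied more than the others within conditions (SD 0.18 pooled over conditions) and between them (range of 0.80 over the STHdhQ111 means). It was called with 1 compound. Cyproheptadine samples read 7.20, 7.54 and 7.88, and the fall of 0.44 on the log2 scale (adjusted p = 0.012) was no longer called without replicate 1, the sample at 7.20; the highest of them overlapped the vehicle samples. Selisistat had the highest Hap1 mean of the treated cells (8.29, 8.47 and 8.27), with a difference of 0.37 that was not called (CI 0.09 to 0.64, adjusted p = 0.17).

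Hip1, the endocytic adaptor, had a negative difference with all 14 compounds and a call with 8. Meclizine samples read 9.54, 9.58 and 9.56, cyproheptadine samples 9.47, 9.55 and 9.54, and DKI samples 9.39, 9.60 and 9.54, against 10.04, 9.88 and 9.83 with vehicle. These 9 samples lay below every vehicle sample. DKI gave -0.41 (SE 0.059, adjusted p = 5e-07), cyproheptadine -0.40 (adjusted p = 1.6e-06) and meclizine -0.36 (adjusted p = 1.4e-05). Pizotifen (-0.28), nicotinamide (-0.25), loxapine (-0.24), nortriptyline (-0.22) and cysteamine (-0.22) were called as well, and in none did the samples overlap with vehicle. Replicate 1 of the vehicle control was the highest Hip1 sample of all, and without it 4 compounds were called. Against compounds of the same slots Hip1 was still called lower with meclizine and pizotifen, but not with loxapine (-0.01) or cysteamine (0.02). Nicotinamide and nortriptyline were part of that reference and were not compared within slots.

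Hip1r, the Hip1 relative, fell with 4 compounds, of which DKI and meclizine also gave a Hip1 call and sodium butyrate and trichostatin A did not. DKI samples read 9.14, 9.14 and 9.14, against 9.53, 9.54 and 9.58 with vehicle. The difference was -0.41 (SE 0.072, adjusted p = 1.5e-05), the same size as for Hip1. Sodium butyrate (9.20, 9.37 and 9.24) gave -0.28 (adjusted p = 0.002), trichostatin A gave -0.21 (adjusted p = 0.043) and meclizine -0.20 (adjusted p = 0.031). Butyrate and trichostatin A both inhibit histone deacetylases, and with them Hip1 differed by -0.03 and -0.06. Whether Hip1r and Hip1 respond differently was not tested. Leaving out any 1 of the vehicle samples left 2 Hip1r calls. Against compounds of the same slots, Hip1r was not called with sodium butyrate (-0.13, adjusted p = 0.096), trichostatin A (-0.09, adjusted p = 0.36) or meclizine (-0.08, adjusted p = 0.34). Hip1 was 0.20 higher with sodium butyrate there (adjusted p = 0.0021). Over the samples that share slots with the vehicle, Hip1r was still called with DKI (-0.42, adjusted p = 0.00032).

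Setd2 had small negative differences with all 14 compounds, from -0.24 to -0.0017, and was called with 2. Cyproheptadine samples read 9.38, 9.52 and 9.31 (difference -0.24, adjusted p = 0.0063). DKI samples read 9.42, 9.52 and 9.49 (difference -0.17, adjusted p = 0.0496). The vehicle samples spread from 9.47 to 9.78 and overlapped both. The count of calls rested on single vehicle samples: it was 0 without replicate 1, 1 without replicate 2 and 9 without replicate 3, the lowest sample.

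With the Group A compounds Bdnf moved the other way from Htt and Hip1. It rose with 3 compounds, the Group A compounds loxapine, pizotifen and cyproheptadine, and fell with 0. Loxapine samples read 9.56, 9.44 and 9.42, pizotifen samples 9.40, 9.55 and 9.45, and cyproheptadine samples 9.62, 9.41 and 9.27, all above the vehicle samples at 9.18 to 9.21. The log2 differences were 0.29 (SE 0.082, adjusted p = 0.010), 0.28 (adjusted p = 0.015) and 0.25 (adjusted p = 0.017). Without replicate 2 of the vehicle control 1 compound was called, and within slots the rises with loxapine and cyproheptadine were not. DKI, meclizine, nicotinamide and cysteamine also lowered Htt and Hip1 against vehicle. With them Bdnf differed by 0.04, 0.01, 0.16 and 0.11 and was not called. The lowest means were those of selisistat (9.05 ± 0.10) and trichostatin A (9.10 ± 0.07), and neither was called.

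**Figure D2:**
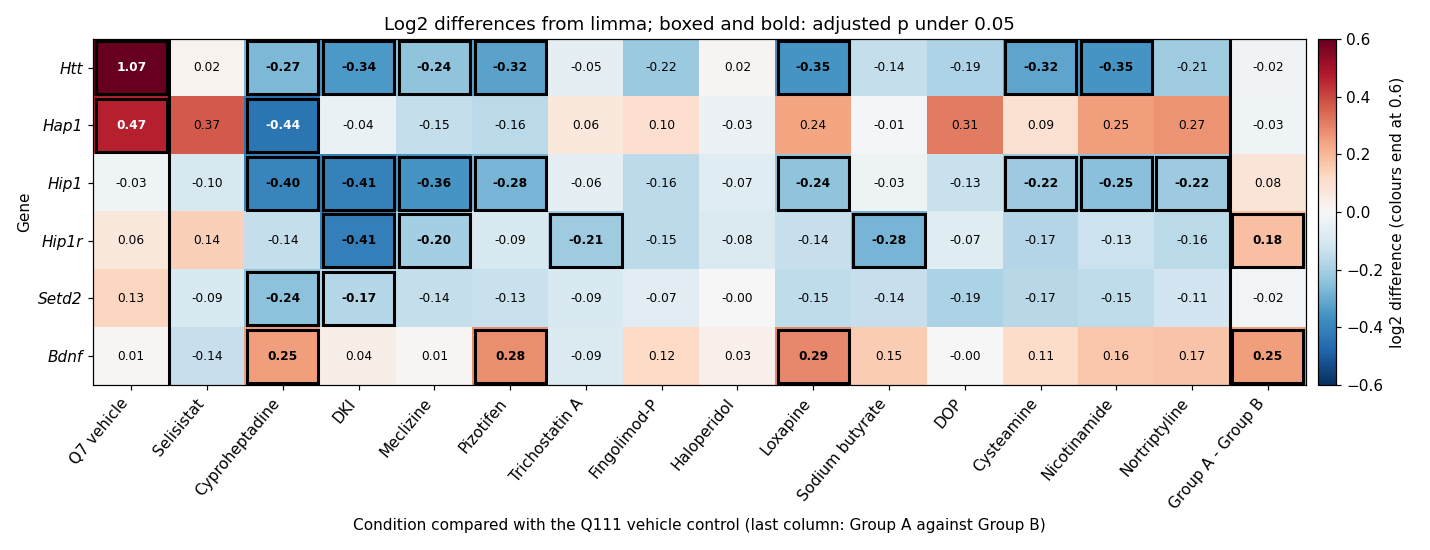
Log2 difference of each gene (rows) between a condition and the STHdhQ111 vehicle control (columns), with Group A minus Group B in the last column; red is higher, blue is lower, and boxed bold values have an adjusted p under 0.05 from limma. Of the boxed compound values, those of Bdnf (0.25 to 0.29) are higher and those of the other genes are lower.

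Groups A and B were next compared directly, which does not use the vehicle samples. Bdnf was higher in Group A, where the 9 samples ran from 9.27 to 9.62 with a median of 9.44, than in Group B, where the 6 samples ran from 9.11 to 9.31 with a median of 9.22. The ranges overlapped only slightly, and the log2 difference was 0.25 (SE 0.053, adjusted p = 0.00019). Hip1r was higher in Group A too, at 9.30 to 9.52 against 9.14 to 9.39, with a difference of 0.18 (SE 0.046, adjusted p = 0.0015). So 2 of 6 genes were called, both higher in Group A, against 41.3% of all genes tested (19.9% higher). Htt differed by -0.02 (CI -0.12 to 0.08), Hap1 by -0.03 (CI -0.21 to 0.15), Setd2 by -0.02 (CI -0.11 to 0.07) and Hip1 by 0.08 (adjusted p = 0.11).

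Cyproheptadine and DKI were collected in the same slots of day and time, and so were pizotifen and meclizine, which allows the groups to be compared within slots. This comparison was added after the data had been seen. Bdnf was higher with cyproheptadine than with DKI, both at 10 µM, by 0.21 (adjusted p = 0.048, with 28.6% of all genes called). With 5 µM pizotifen it was higher than with 10 µM meclizine by 0.27 (adjusted p = 0.019, with 16.2% of all genes called). The Hip1r difference was 0.27 (adjusted p = 0.0041) in the first pair and 0.11 (CI -0.03 to 0.26, adjusted p = 0.33) in the second, where the doses also differ. Hap1 was lower with cyproheptadine than with DKI by -0.40 (adjusted p = 0.026). Over both pairs together the difference was 0.24 for Bdnf (adjusted p = 0.0010) and 0.19 for Hip1r (adjusted p = 0.0029), with 35.9% of all genes called.

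The vehicle control was collected at day 1 time 1, day 2 time 2 and day 3 time 3, together with selisistat and the STHdhQ7 control, and the other 13 compounds were collected at least partly in other slots. Meclizine, trichostatin A, pizotifen, fingolimod phosphate and haloperidol shared other slots, and sodium butyrate, loxapine, DOP, cysteamine, nicotinamide and nortriptyline shared a further set. Mean Htt was 8.04 and 8.06 in the 2 STHdhQ111 conditions of the vehicle slots, 7.72 to 8.06 in the 5 conditions of the second set and 7.69 to 7.90 in the 6 conditions of the last. For 7 compounds the comparison was therefore repeated against compounds of the same slots (fingolimod phosphate and haloperidol, or nicotinamide and nortriptyline), whose own effects on these genes are part of that reference. Htt was then called with 1 of the 7 in place of 4, namely pizotifen (-0.22, adjusted p = 0.019, 17.3% of all genes called). With loxapine the Htt difference went from -0.35 to -0.07, with cysteamine from -0.32 to -0.03 and with meclizine from -0.24 to -0.14 (adjusted p = 0.12), against 22.8%, 0.119% and 28.8% of all genes called. Hip1 was still lower with meclizine (-0.24, adjusted p = 0.00032) and pizotifen (-0.16, adjusted p = 0.021). It was 0.20 higher with sodium butyrate (adjusted p = 0.0021, 30.8% of all genes called), where it had been -0.03 against vehicle, and it differed by -0.01 with loxapine. With trichostatin A and DOP, 0 of the 6 genes were called in this comparison (14.4% and 10.6% of all genes). For Hip1r 0 of 7 were called in place of 3, and for Setd2 and Hap1 0 were called in either comparison. Bdnf was called with pizotifen (0.20, adjusted p = 0.042) and not with loxapine (0.12, CI -0.02 to 0.26). Cyproheptadine and DKI, with a collection at day 3 time 1 in place of day 1, have no such reference. Their replicates 2 and 3 do share slots with those of the vehicle control, and a fit without replicate 1 of all 3 conditions was added after the data had been seen. DKI then differed from vehicle by -0.25 for Htt (adjusted p = 0.031), -0.29 for Hip1 (adjusted p = 0.00067) and -0.42 for Hip1r (adjusted p = 0.00032), while Setd2 was not called (28.9% of all genes called). With cyproheptadine Hip1 was lower by -0.31 (adjusted p = 0.00039), and Htt (-0.19, adjusted p = 0.13), Hap1 (-0.23), Setd2 (-0.18) and Bdnf (0.15, adjusted p = 0.27) were not called (24.5% of all genes called).

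**Figure D3:**
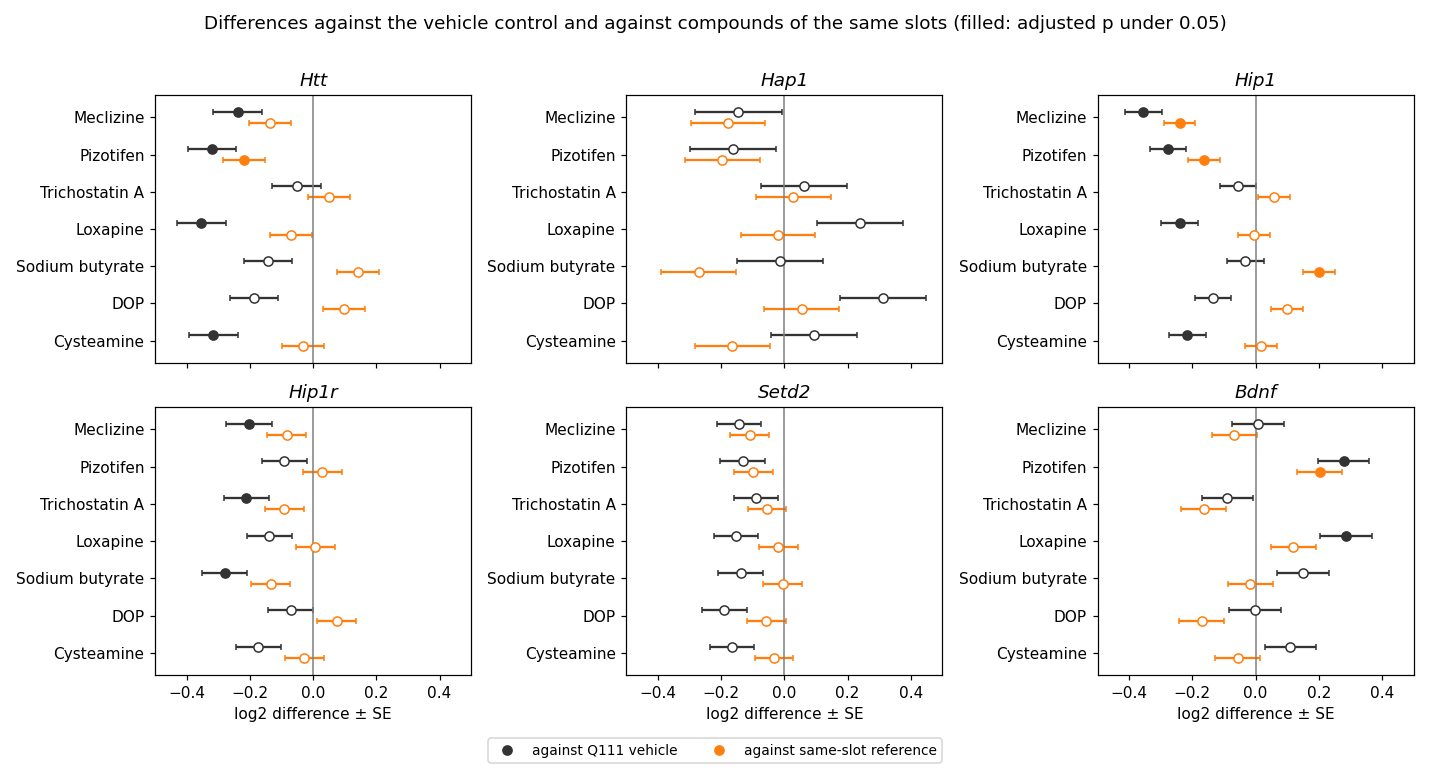
Log2 difference ± SE (x axes) for 7 compounds against the STHdhQ111 vehicle control (black) and against compounds of the same collection slots (orange), 1 panel a gene; filled points have an adjusted p under 0.05 from limma. The Htt differences of loxapine and cysteamine lie at -0.07 and -0.03 in orange, and pizotifen keeps filled points for Htt, Hip1 and Bdnf.

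The 6 genes were also set beside each other over the 15 STHdhQ111 condition means, with the collection day removed. These points share the vehicle slots or the other slots, and r is given as a description. Htt went up and down with Hip1 (r = 0.79, n = 15) and with Setd2 (r = 0.72), and against Bdnf (r = -0.70). With Hip1r it had an r of 0.52 and with Hap1 one of 0.13. Hip1 and Setd2 had an r of 0.71. By r with Htt, Hip1 ranked 76, Setd2 209 and Bdnf 9816 of the 9937 genes that averaged 6 or more. By r with Hip1, Htt ranked 247 and Setd2 669, so many other genes followed these members as closely or more closely. With the STHdhQ7 control as a further point (n = 16), r of Htt was 0.58 with Hip1, 0.84 with Setd2, -0.42 with Bdnf, 0.55 with Hip1r and 0.45 with Hap1. Of the 9937 genes that averaged 6 or more, the 2 most like Htt were Abca2 (r = 0.95), a lipid transporter of the endolysosomal system, and Ogdh (r = 0.91), a subunit of the 2-oxoglutarate dehydrogenase complex. Abca2 kept an r of 0.94 when STHdhQ7 was added, while that of Ogdh went to 0.67. The most like Hip1 were Mdc1 (0.95), a DNA damage mediator, and Fmnl3 (0.94), a formin of the actin cytoskeleton, and those most like Bdnf were Litaf (0.92) and Myl12a (0.91), a myosin regulatory light chain. Trim26 (0.91) and the peptide transporter gene Tap2 (0.89) were nearest to Hap1, and Hnrnpul2 (0.90) and Mtmr4 (0.90) to Hip1r. Nearest to Setd2 were Tead1 (0.91), a transcription factor of the Hippo pathway, and Phc3 (0.90), a Polycomb protein.

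**Figure D4:**
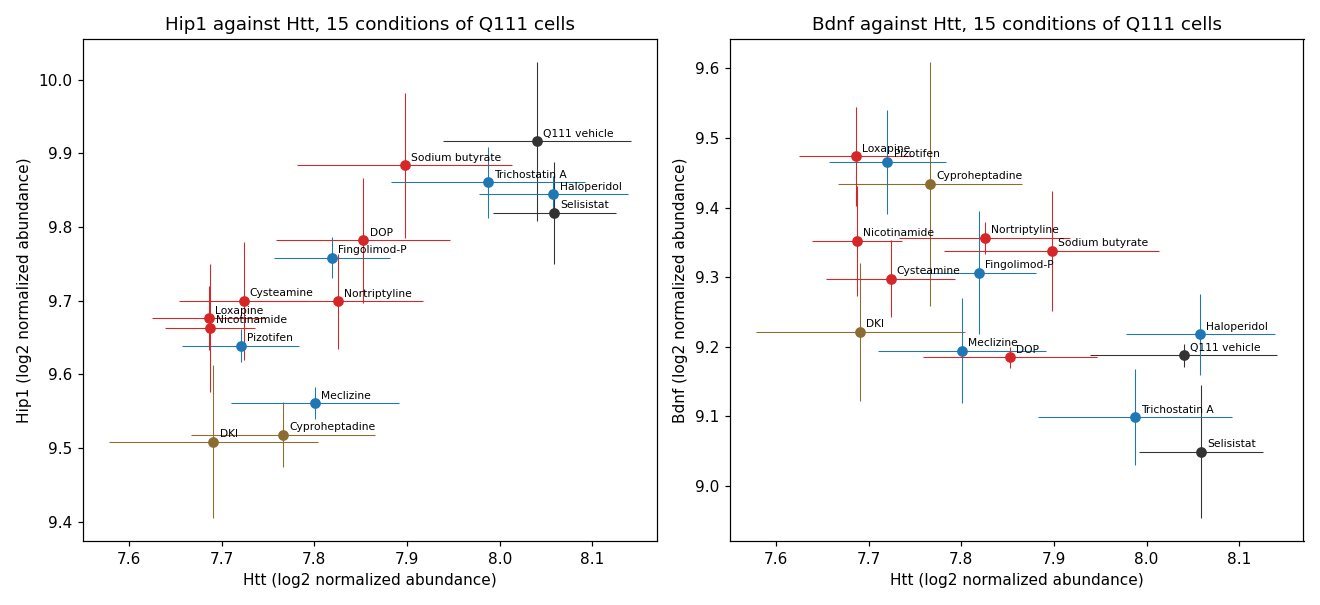
Mean log2 normalized abundance ± SD (n = 3) of Hip1 (left) and Bdnf (right) against Htt in the 15 conditions of STHdhQ111 cells, coloured by collection slots: black for the vehicle slots, brown for cyproheptadine and DKI, and blue and red for the other sets. Hip1 tends to be higher and Bdnf lower where Htt is higher. The r of 0.79 and -0.70 were taken with the collection day removed, which was not done for the plotted means.

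Genes that work with each member were counted from 5 lists, since a change of a partner may or may not extend to its pathway. Compound counts for these lists are against the vehicle control, whose collection slots most compounds did not fully share. Differences within slots are not reported here for list genes, so these compound counts do not separate treatment from slot. Other huntingtin-binding proteins were called between the lines for 12 of 16 tested genes, 8 of them higher in STHdhQ7 cells, where 55.8% of all genes were called; the median difference was 0.09 against 0.00 over all genes. Dlg4, the postsynaptic scaffold PSD-95, was higher by 0.42 (8.35 ± 0.13 against 7.93 ± 0.07, SD, n = 3) and Zdhhc13, a palmitoyl transferase, by 0.39. Optn, the autophagy receptor optineurin, was lower in STHdhQ7 cells by -0.29 and Sp1, a transcription factor for GC boxes, by -0.15. Dlg4 fell with all 5 Group A and Group B compounds (from -0.26 with loxapine to -0.53 with cyproheptadine) and rose with DOP (0.33) and sodium butyrate (0.19). Ube2k, a ubiquitin-conjugating enzyme, rose with 5 compounds by 0.13 to 0.17, and Sp1 fell with 4.

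For the transport partners of Hap1, 11 of 15 (73.3%, against 55.8% of all genes) were called between the lines and 8 were higher in STHdhQ7 cells, with a median of 0.20. The kinesin light chain gene Klc1 was higher by 0.46 (adjusted p = 4.4e-08) and the dynactin gene Dctn2 by 0.32. Kalrn, a guanine exchange factor, was lower by -0.46 and the adaptor gene Trak1 by -0.14. Kif5c, a neuronal kinesin heavy chain named here after its values had been seen, was at 5.94 ± 0.04 against 3.85 ± 0.07, a difference of 2.08. Dync1h1, the dynein heavy chain, and Itpr1, the inositol trisphosphate receptor, fell with 9 compounds each, Dync1h1 most with sodium butyrate (-0.52). Kalrn and Trak1 fell with 7 each. Counts per compound were highest for DKI, with 8 of 15 lower and 1 higher (21.9% of all genes lower), and sodium butyrate, with 7 lower and 2 higher (17.8% of all genes lower).

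In the clathrin machinery with which Hip1 and Hip1r work, 10 of 16 genes (62.5%) were called between the lines and 8 of these were lower in STHdhQ7 cells (median -0.12), against 55.8% of all genes called and 26.6% lower. The adaptor gene Ap2a2 was at 10.8 against 11.4, a difference of -0.58 (adjusted p = 3.5e-13), and Fcho2, which starts coated pits, differed by -0.50. The heavy chain Cltc was higher by 0.16. Ap2b1, the beta subunit of the AP-2 adaptor, fell with 11 of 14 compounds, by 0.16 to 0.40, and Ap2a2 with 8. With DKI 8 of 16 genes fell and 0 rose, where 21.9% of all genes were called lower.

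Of the H3K36 methylation genes around Setd2, 8 of 17 (47.1%, against 55.8% of all genes) were called between the lines, 5 of them higher in STHdhQ7 cells (median 0.06). Msh6, a mismatch repair protein that reads H3K36 trimethylation, was higher by 0.72 (adjusted p = 5.2e-14) and the demethylase gene Kdm4b by 0.68. The reader gene Zmynd11 differed by -0.28 and the demethylase gene Kdm2a by -0.26. Kdm2a fell with 11 compounds, by 0.19 to 0.42, and Ash1l, an H3K36 methyltransferase, with 9, by 0.24 to 0.35. With sodium butyrate 9 of the 17 were called lower and 0 higher (17.8% of all genes lower). With loxapine 8 were called lower and 0 higher (11.8% lower).

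Around Bdnf, 11 of 17 neurotrophin genes, receptors and regulators were tested. The genes of its receptors TrkB (Ntrk2) and p75 (Ngfr) had means under 1 and were not tested. Between the lines 6 of 11 (54.5%, against 55.8% of all genes) were called, 1 of them higher in STHdhQ7 cells (median -0.12). That gene was Sort1, the sorting receptor sortilin, at 9.24 ± 0.30 against 8.09 ± 0.10, a difference of 1.15 (adjusted p = 2.4e-12). The CREB coactivator gene Crtc1 fell with 6 compounds, by 0.18 to 0.34. Sort1 fell with DKI, pizotifen, meclizine and loxapine.

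**Figure D5:**
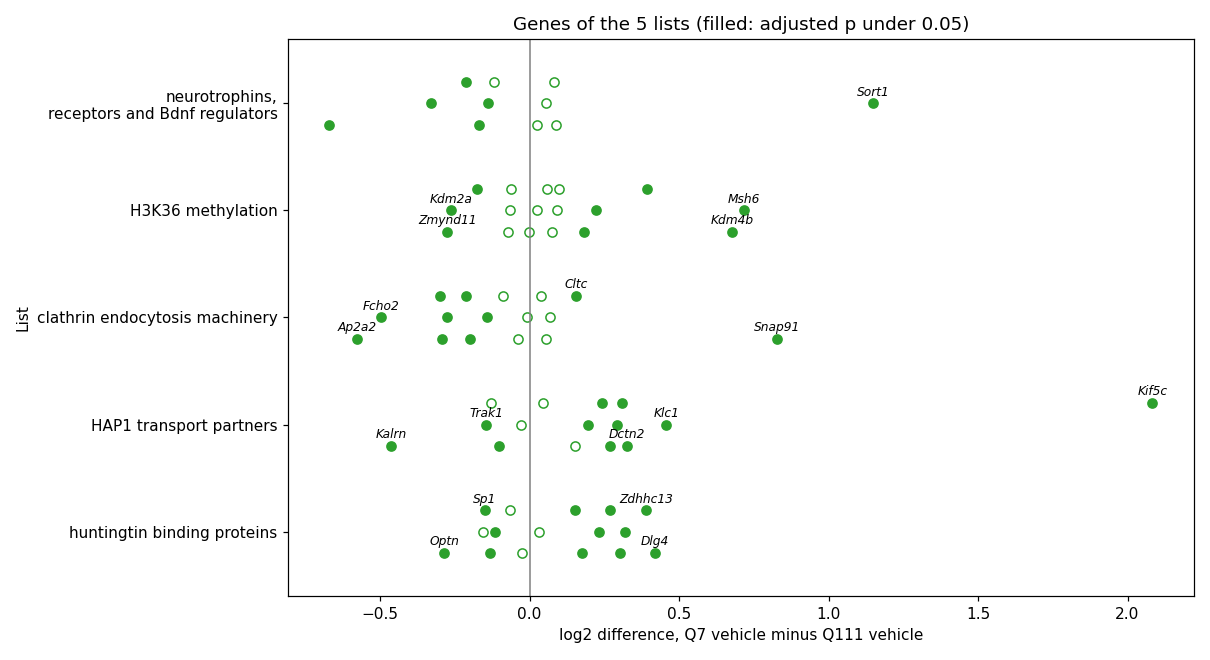
Log2 difference between the STHdhQ7 and STHdhQ111 vehicle controls (x axis) for each tested gene of the 5 lists (y axis); filled points have an adjusted p under 0.05 from limma, and the names given are of genes among the largest called rises and falls, with Kif5c and Snap91 named for their size. Kif5c averaged 4.05 and Snap91 1.20, below the mean of 6 asked of the other named genes, and Snap91 lay just above the minimum of 1 for testing. Most filled clathrin genes lie to the left of 0 (8 of 10) and most filled transport genes to the right (8 of 11).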

How the data were processed

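Per the labels, polyA RNA was prepared with a directional kit and sequenced as single-end reads of 50 bp. The authors trimmed reads with Trimmomatic 0.36 and quantified them with RSEM against GRCm38.p5 transcripts, and the submitters' notes also name DESeq2. The deposited table holds log2 normalized abundances per gene and sample; the transformation is not named, low genes hardly vary, and counts and depth are unknown, so no counting error is given and no pseudocount was added. Linear totals differed by at most 1.11-fold between samples, and replicates correlated at 0.996 to 0.999 across genes.

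Genes with a symbol and a mean of at least 1 were fitted with limma 3.58.1 (R 4.3.3), with 16 conditions and the collection day as terms, 30 residual degrees of freedom and a variance trend, two-sided, and adjusted by Benjamini-Hochberg within each comparison. The procedure was tested on simulated data. Replicate numbers mark the collection day in the labels except in the cyproheptadine and DKI samples numbered 1, and the day served as the block. Same-numbered samples of 2 conditions deviated together (mean r over 0.1) in 9 of 120 pairs of conditions. From each of the 5 lists, genes with a mean of at least 6 were named if among the 2 largest called rises or falls between the lines or the 2 called with most compounds, and for each member the 2 genes of highest r. Exceptions are said where they occur. Some genes that this rule names are not reported here by themselves, and they remain in the counts and medians of their list. The members and lists were chosen with earlier results of these data known. Positions and sequences come from GENCODE M21 and RefSeq on GRCm38.p6. Plots were made in Python 3.11.15 with matplotlib 3.10.9.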

Additional observations from a re-analysis of the deposited data

Results flagged for a closer look

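In the 6 samples of Group B, 2 values stood apart at the low end, by a gap above Dixon's critical value relative to the range. Both belonged to DKI replicate 1, with Hip1 at 9.39 and Setd2 at 9.42. About 5% of groups are marked this way by chance, and 12 combinations of a gene and a group were looked at. Group B pools 2 compounds, and conditions with 3 samples were not examined.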

How the results depend on the processing

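With the replicate number as a block in place of the collection day, the Htt difference between the lines was 1.07 and no call or count described for the comparisons of the lines and of the groups changed. Leaving out 1 sample at a time moved the difference between the lines for Hap1 between 0.284 and 0.596 and for Setd2 between 0.034 and 0.189, and the Group A minus Group B difference of Hip1 between 0.047 and 0.099; it was called without DKI replicate 2. Numbers of compounds with a call then ranged from 5 to 9 for Htt, 0 to 1 for Hap1, 4 to 9 for Hip1, 2 to 4 for Hip1r, 0 to 9 for Setd2 and 1 to 3 for Bdnf. The Setd2 count was 1 with the collection time added, with samples centred on their median, with no filter on the mean or with no variance trend, and 0 with only the compared samples in the fit. With only those samples, 7 huntingtin-binding genes (main 12) and 5 H3K36 methylation genes (main 8) were called between the lines. Against the reference of the same slots, 1 of 7 compounds had a call for Htt (4 against vehicle), 0 for Hip1r (3) and 1 for Bdnf (2), and the Hip1 difference turned to 0.019 with cysteamine and 0.20 with sodium butyrate. With only the same-slot samples of vehicle, cyproheptadine and DKI, chosen after seeing the data, the counts were 0 for Hap1 and 0 for Setd2. The causes of these changes were not tested. A further 54 values that were called under neither setting changed sign. The depth of the libraries is unknown, and 3 samples a condition limit the precision.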
